A study of Rattus norvegicus with 3 samples.

Results

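The connective tissue that had formed around a titanium alloy implant was compared with the connective tissue around a natural tooth in the rat upper jaw, gene by gene. The tissues are called here, after the labels, PICT (peri-implant) and PCT (periodontal). The comparison rests on 2 of the 3 arrays of the series, 1 array per tissue, and covers all 14217 genes that a probe set with exactly 1 gene symbol measured. All animals were male, wild-type Sprague-Dawley rats. For PICT, the upper first molar was pulled at 5 weeks of age, an implant was set into the socket, and the tissue was taken 4 weeks later, at 9 weeks. For PCT, the tissue came from unoperated rats of 9 weeks with the upper first molar in place. The remaining array, OMCT, is mucosa where the molar was pulled at 5 weeks with no implant, also taken 4 weeks later at 9 weeks. Its values stand beside the others for context, and no gene is called on them. PICT and PCT therefore differ in the implant, in the loss of the tooth and in the surgical wound, and these cannot be told apart here. The sources used here do not give the number of animals behind an array. The tissue was cut out of sections by laser microdissection, in which a laser traces an area chosen under the microscope.

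Around a tooth, gingival connective tissue meets the root surface through a collagen fibre apparatus anchored in cementum, and the periodontal ligament suspends the root in its socket. The inner face of the gingiva is sealed to the tooth by junctional epithelium, a thin, little-differentiated epithelium that expresses simple-type keratins such as Krt19. An implant has no cementum and no ligament; its cuff is scar-like mucosa whose fibres run mostly alongside the metal, with an epithelial seal that forms anew after surgery. Leukocytes are a normal part of both cuffs. In bulk tissue, fewer cells of a type and less RNA per cell cannot be told apart, and this holds for every cell type list that follows.

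The arrays are rat GeneChips on which each probe set reads 1 transcript as an intensity, a brightness on a linear scale. The median probe set read 56.5 in PICT, 34.3 in PCT and 57.4 in OMCT. Intensities given below are as deposited, not centred, so an order of the 3 tissues rests on that scale unless stated otherwise. The 3' to 5' signal ratio, which grows as RNA is degraded or copied short, was 1.58 in PICT and 2.80 in PCT for hexokinase and 1.12 and 1.46 for Gapdh, so PCT was the more 3'-biased of the pair. The part of RNA quality in the differences was not tested. Each difference below is PICT minus PCT of log2(intensity + 8.56), after each array was centred on its median. A difference of 0 therefore means that the deposited intensity was about 1.52-fold higher in PICT, and without centring every difference would be 0.60 larger. A median difference between -0.60 and 0, for a list of genes, turns positive on the values as deposited. A gene is called higher or lower when the difference is at least 1 in size (2-fold) and the brighter array lies at or above its own median probe set. With 1 array per tissue there is no test, no error between animals and no p-value; the number of arrays limits the precision. Probe sets of the same gene gave a technical yardstick: their differences spread with an SD of 0.49, or 0.44 among probe sets bright enough to count.

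Of the 14217 genes, 566 were higher in PICT (3.98%) and 479 were lower (3.37%), and 13172 were neither. These percentages are the background against which each list of genes is read. Most genes differed little: 59.8% lay within 0.5 of zero, and the median over all genes was -0.13. Large differences were mostly upward. At least 4-fold differences were seen in 158 genes upward and 56 downward, and at least 8-fold differences in 37 and 10. The genes just inside and just outside the threshold differed by 1.001 and 0.999 upward and by -1.002 and -0.9996 downward, so calls near it carry little weight. The split depends on centring: on the values as deposited 2009 genes were higher and 128 lower, so 94.0% of calls were upward in place of 54.2%. All 566 higher genes stayed higher on that scale, while 128 of the 479 lower genes stayed lower by the same rule.

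**Figure D1:**
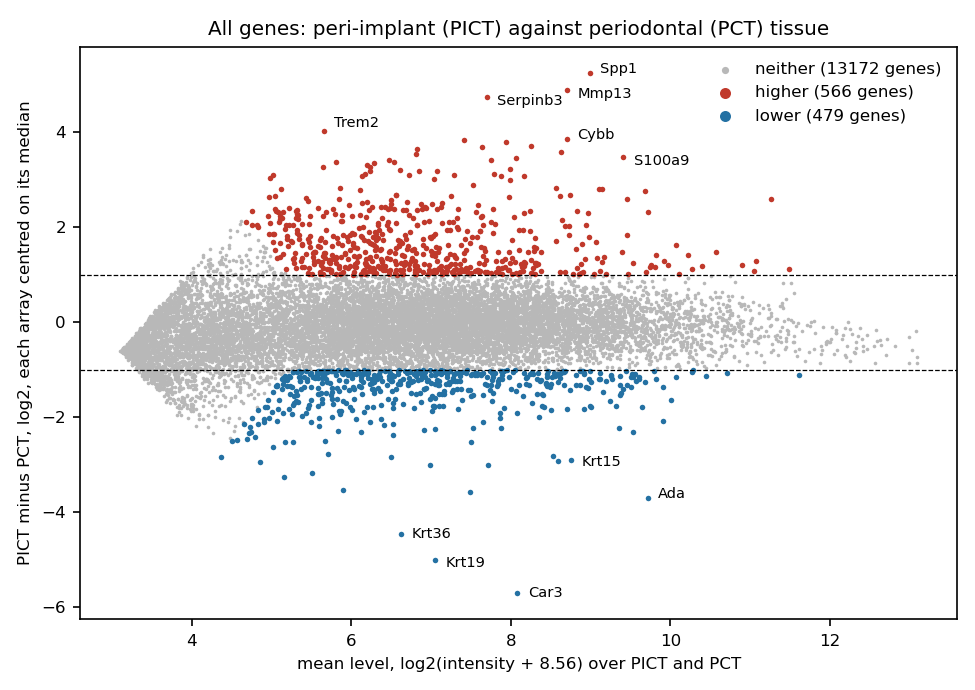
Each point is 1 gene, with its mean level over PICT and PCT on the x axis, as log2(intensity + 8.56), and the centred log2 difference PICT minus PCT on the y axis; dashed lines mark the 2-fold threshold. The 566 higher genes (red) reach 5.24 for Spp1 and the 479 lower genes (blue) reach -5.70 for Car3, while the 13172 grey genes either lie between the lines or are dim on the brighter array.

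The largest positive difference among called genes was that of Spp1, which encodes osteopontin, a phosphorylated adhesion protein of mineralised tissue and macrophages. It read 3839.8 in PICT against 58.5 in PCT and 1035 in OMCT, a difference of 5.24. The collagenase Mmp13 followed at 2793 in PICT against 53.9 in PCT and 7086 in OMCT, a difference of 4.89; here OMCT, not PICT, was the brightest tissue. Serpinb3, an epithelial inhibitor of serine and cysteine proteases, read 1315 in PICT against 23.9 in PCT and 51.7 in OMCT, a difference of 4.75, so it was bright in the implant tissue alone among the 3 arrays. Trem2, through which macrophages sense lipids and which osteoclasts also carry, read 241 in PICT against 1.58 in PCT and 108 in OMCT; its PCT value lies below the highest negative control spot, so the difference of 4.02 has no exact size. The remaining leading genes were largely myeloid. Cybb, the electron-carrying core of the oxidase that makes superoxide in phagocytes, read 1948 in PICT and 80.4 in PCT, and Tyrobp, the signalling adaptor for Trem2, read 1121 in PICT and 45.1 in PCT. The lectin receptor Clec7a, which recognises fungal beta-glucan, read 876 in PICT and 36.5 in PCT, and the mannose receptor Mrc1 read 464 in PICT and 18.1 in PCT. Mpeg1, a pore-forming protein of macrophages, read 1089 in PICT and 57.03 in PCT, and Bcl2a1, an anti-apoptotic Bcl-2 relative of leukocytes, read 485 in PICT and 17.5 in PCT. S100a9, a subunit of the calprotectin dimer of neutrophils and stressed epithelium, read 2794 in PICT against 157 in PCT and 720.1 in OMCT. Cd300c2, Lilrb4 and Pilra, paired immunoglobulin-type receptors of myeloid cells, had differences of 3.71, 3.41 and 3.41, and Smpdl3a, a secreted phosphodiesterase related to acid sphingomyelinase, had 3.58.

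The leading lower genes were of other kinds. Car3, a carbonic anhydrase abundant in muscle and fat, read 37.8 in PICT against 1575 in PCT and 60.5 in OMCT, a difference of -5.70 with both of its probe sets in close agreement. Krt19, the keratin of junctional epithelium, read 20.3 in PICT against 603 in PCT and 82.6 in OMCT, a difference of -5.01. Krt36, a hair-type keratin found in the filiform papillae of the tongue, read 17.5 in PICT against 365 in PCT and 1.80 in OMCT, a difference of -4.44. All 3 were far brighter in PCT than in either other tissue. Ada, the enzyme that breaks down adenosine, read 279 in PICT against 2458 in PCT and 70.2 in OMCT, a difference of -3.70, and Cdo1, which oxidises cysteine, read 82.3 in PICT against 474 in PCT and 43.1 in OMCT, a difference of -3.01. Krt15, a keratin of basal and stem-like keratinocytes, read 186 in PICT against 951 in PCT and 838 in OMCT, so here PICT stood below both other tissues. Thbs4, a thrombospondin of tendon and ligament, did the same at 165 in PICT against 849 in PCT and 547 in OMCT. Inhbb, the activin beta-B subunit, read 84.05 in PICT against 343 in PCT and 408 in OMCT, and Acan, the large cartilage proteoglycan aggrecan, read 41.4 in PICT against 162 in PCT and 152 in OMCT; both were also lowest in PICT. The other leading lower genes were the uncoupling protein Ucp2 at 163 against 782 (PICT against PCT), the citrate importer Slc13a5 at 46.5 against 283, the calcium pump Atp2a3 at 33.2 against 189, the transporter-like Mfsd4a at 55.6 against 491, the tubulin Tuba8 at 29.8 against 118 and Nxpe1 at 13.04 against 155.

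**Figure D2:**
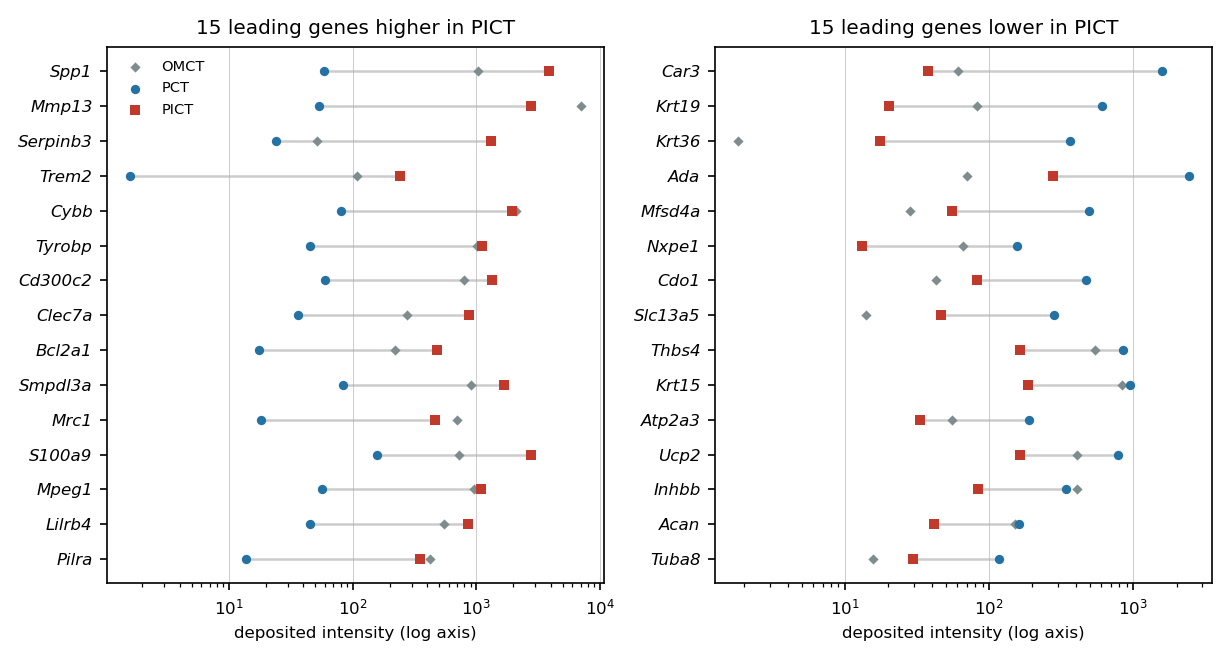
Deposited intensity on a log axis for the 15 leading genes in each direction, with PICT as red squares, PCT as blue circles and OMCT as grey diamonds; grey lines join PICT and PCT. On the left Spp1 spans from 58.5 in PCT to 3839.8 in PICT, and on the right Car3 spans from 37.8 in PICT to 1575 in PCT; OMCT lies near PICT for some genes and near PCT for others.

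The tissue labels were checked on 6 genes. The fibroblast products Col1a1, Col1a2, Col3a1 and Vim were bright on both arrays, for example Col3a1 at 9967 in PICT against 7496 in PCT and 11728 in OMCT. Keratinocyte genes were as bright: Krt5 read 7965 in PICT against 9565 in PCT and 8595 in OMCT and Krt14 read 7491 in PICT against 8911 in PCT and 6894 in OMCT. Differentiated oral epithelium was also present in both, since Krt24 read 6441 in PICT and 6864 in PCT and the desmosomal cadherin Dsg1 read 5048 in PICT and 5172 in PCT, while OMCT held much less of both (108 and 1635). The labels say connective tissue, so both arrays carried a large epithelial signal besides. Of 18 differentiation markers and 12 desmosome genes, 0 passed in either direction. Most nonetheless had differences below 0, namely 14 of 18 and 11 of 12, with medians of -0.45 and -0.56. As deposited these medians were 0.15 and 0.04, so whether the epithelial signal was level rests on the centring. Of the skeletal muscle list 0 of 19 markers passed, with Acta1 and Ckm dim at 5.28 against 9.86 and 7.39 against 22.96 and Myh1 bright at 3339 against 2681. Only 2 of these 19 were bright enough to count.

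In the list of phagocyte oxidase subunits, Fc receptors and leukocyte signalling genes, 17 of 20 were higher and 0 lower, with a median difference of 1.998 beside -0.13 for all genes. Ptprc, the pan-leukocyte phosphatase CD45, read 279.6 in PICT against 11.3 in PCT and 290.2 in OMCT, so this gene of all white cells was near the dim end in PCT. Lcp1, the leukocyte actin bundler, read 2107 in PICT and 224 in PCT. The oxidase subunits Ncf1, Ncf4 and Cyba read 163 against 15.5, 161 against 28.9 and 568 against 123, and the Fc receptors Fcgr1a and Fcgr2b read 869.5 against 64.5 and 549.7 against 58.4. The macrophage list, whose detail is not the subject here, held 12 higher genes of 21, and its summed intensity was 14417 in PICT against 2103 in PCT and 17957 in OMCT. That sum is given because many genes in the following paragraphs are expressed by macrophages; the part of macrophage number in those results was not tested.

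Markers of other white cells differed unequally. Neutrophil markers were higher in 5 of 11, led by S100a9 and by the gelatinase Mmp9 at 1836 in PICT against 166 in PCT and 614 in OMCT. The granulocyte growth factor receptor Csf3r read 70.5 in PICT and 8.69 in PCT and S100a8 read 1376 in PICT against 321 in PCT and 136 in OMCT. Of the other members, Cxcr2 was short of the threshold at 0.61. Mmp8 and Camp, at 1.56 and 1.63, were too dim to count. Lcn2, Np4 and RatNP-3b were dim as well, at 0.19, -0.86 and -0.48. For T and natural killer cells 4 of 22 passed: the interleukin 7 receptor Il7r at 359.8 in PICT against 14.9 in PCT and 166 in OMCT, Cd3g at 87.3 against 7.94, Cd4 at 157 against 29.2 and Cd8a at 103 against 0.407. Cd8a has 3 probe sets and not all of them showed the difference, and Cd3e, part of the same receptor complex as Cd3g, read only 14.3 against 7.41. Of the 22 genes 17 had differences above 0 and 5 below, among the latter Cd247 at -0.94, Ctla4 at -0.30 and Lck at -0.29. Only 7 were bright enough to count. No B or plasma cell marker passed (0 of 11), but only 3 were bright enough to count. Ms4a1, which encodes CD20, read 4.71 against 2.12, below the negative controls. Of 12 mast cell markers only Gata2 was bright enough to count, and it was lower; Cpa3 and Cma1 were dim at 6.33 against 33.3 and 1.85 against 19.5. The median of the mast cell list was -0.58, beside -0.56 for the dimmest of 10 equal groups of all genes, and 0.03 as deposited. Of 11 dendritic cell markers 3 were higher and 1 lower, with 6 differences above 0 and 5 below. Itgax, the integrin CD11c, read 335 in PICT and 31.5 in PCT, and Cd83, a maturation marker, read 186 in PICT and 27.2 in PCT. Epcam, shared by Langerhans cells and simple epithelium, was lower at 758 against 1015. Clec9a, Irf8 and Cd1d1 were neither, at 0.96, 0.84 and 0.44, as were Clec10a, Flt3, Batf3 and Fscn1, at -0.08, -0.12, -0.50 and -0.79. Antigen presentation by MHC class II was higher in 6 of 12 genes, among them the peptide-loading RT1-DMb at 413 against 52.2, the transactivator Ciita at 113 against 23.3, whose probe sets disagreed, and the costimulator Cd86 at 70.01 against 14.5. For class I 3 of 17 were higher and 1 lower. The higher ones were led by the transactivator Nlrc5 at 151 in PICT against 13.5 in PCT and 42.6 in OMCT. Tapbp was lower at 44.2 in PICT against 79.8 in PCT, and the light chain B2m was level at -0.02.

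**Figure D3:**
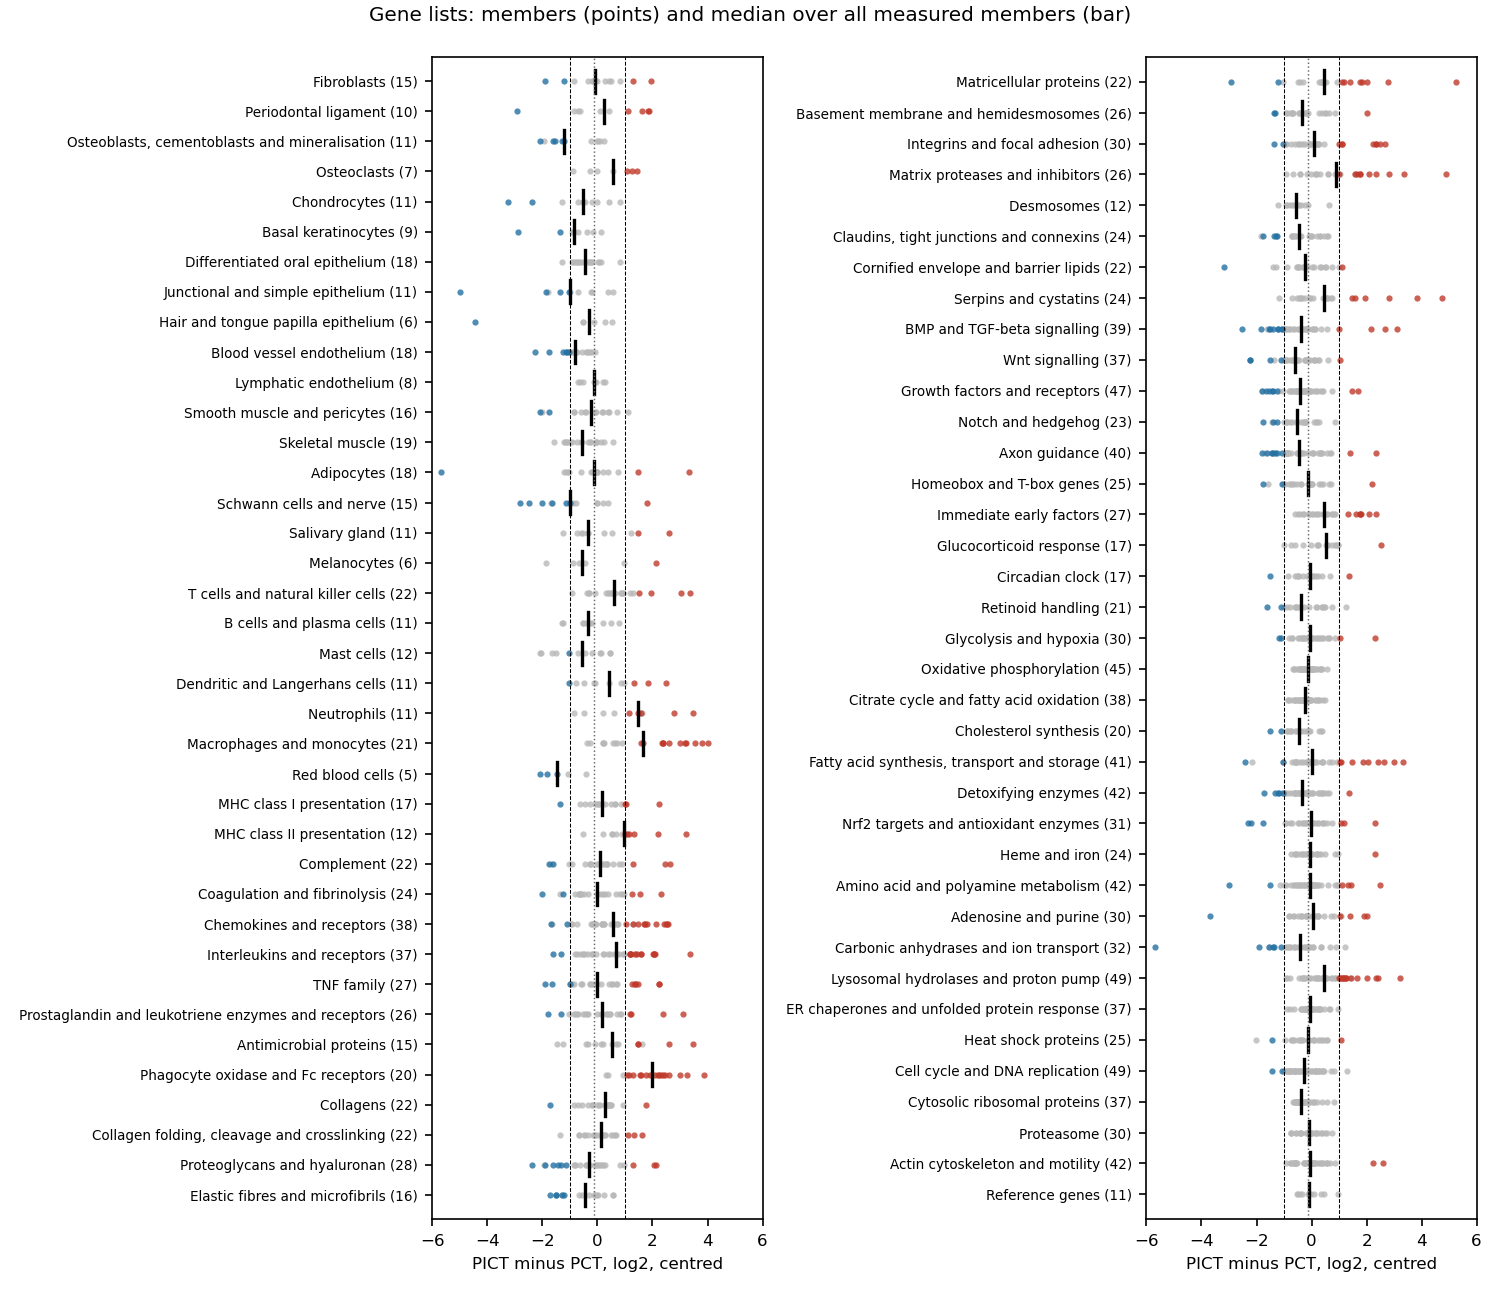
Each row is 1 of 75 gene lists, with the number of measured members in brackets; points are members by their centred log2 difference, red for higher, blue for lower and grey for neither, and black bars are medians. Dashed lines mark the 2-fold threshold and the dotted line the all-gene median of -0.13: phagocyte, macrophage and neutrophil rows lie to the right, and the red cell, osteoblast, nerve and junctional epithelium rows to the left.

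Cytokine genes of the interleukin and chemokine families were called higher in PICT more often than the 3.98% of all genes. Among interleukins, colony stimulating factors and their receptors 13 of 37 were higher and 2 lower. On the ligand side, Il1b, the main inflammasome-processed cytokine, read 1216 in PICT against 188 in PCT and 408 in OMCT, a difference of 2.04. Osm, oncostatin M, a gp130 cytokine of myeloid cells, read 276 in PICT against 36.7 in PCT and 37.3 in OMCT, a difference of 2.05. As deposited, PCT and OMCT were alike for Osm and PICT stood alone. Il1a read 199 in PICT and 51.7 in PCT and Il18 read 151 in PICT and 37.7 in PCT, but Il6 stayed dim at 23.5 against 6.67, and Il33 read 84.4 against 68.4. Inhibitors of the same pathway were split: the decoy receptor Il1r2 read 193 in PICT against 23.7 in PCT and 81.2 in OMCT and the Il18 inhibitor Il18bp read 107 in PICT and 20.9 in PCT, whereas the receptor antagonist Il1rn was bright on both arrays at 1716 against 1991, a difference of -0.82. On the receptor side, Csf2ra and Csf2rb, the subunits of the GM-CSF receptor, read 349 against 47.3 and 129 against 29.9, Il17ra read 655 against 138, Il4r read 251 against 66.9 and Il10ra read 87.1 against 12.4. The lower pair was Il34, an alternative ligand of the macrophage receptor Csf1r, at 29.6 in PICT against 68.2 in PCT and 72.5 in OMCT, and Lifr, the receptor for leukaemia inhibitory factor, at 97.9 in PICT against 166 in PCT and 177 in OMCT.

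Of the chemokines and their receptors, 11 of 38 were higher and 2 lower. Neutrophil attractants that bind Cxcr2 were among them: Cxcl2 read 315 in PICT against 40.4 in PCT and 46.8 in OMCT, Cxcl6 read 180.3 in PICT against 28.8 in PCT and 34.3 in OMCT and Cxcl1 read 221 in PICT against 46.3 in PCT and 161 in OMCT. The first pair was bright in PICT alone, while Cxcl1 was raised in OMCT also. Monocyte attractants included Ccl2 at 298 in PICT against 26.7 in PCT and 391 in OMCT, Ccl7 at 84.1 in PICT against 16.3 in PCT and 151 in OMCT and Ccl9 at 367 in PICT against 35.7 in PCT and 253 in OMCT, each of which was bright in both operated tissues. The receptor partner of Ccl2 and Ccl7 on monocytes, Ccr2, did not pass at 106 against 37.3. Ccr1, a receptor for Ccl3 and Ccl9, did pass at 339.8 in PICT against 33.9 in PCT and 79.5 in OMCT. Cxcl10, a T cell attractant induced by interferon, read 264 in PICT against 21.7 in PCT and 13.7 in OMCT, and the B cell attractant Cxcl13 read 528 in PICT against 164 in PCT and 2045 in OMCT, where OMCT was the brightest. Lower in PICT were Cx3cl1, the membrane-anchored ligand of Cx3cr1, at 18.01 against 48.4, and Cxcl12, a stromal factor that holds Cxcr4-bearing cells, at 143 against 208; Cxcr4 itself was higher at 1146 in PICT against 212 in PCT and 560.1 in OMCT. With all 3 probe sets of Cxcl12 averaged, its difference was short of the threshold.

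Since neutrophil and monocyte attractants are textbook targets of NF-kB, the start sites of the chemokine genes were searched for its motif in the RefSeq promoter table of build GRCr8, in the 250 bases before the start. The letters searched were GGG followed, after any 2 bases, by TTTCC, on either strand. They occurred in 4 of the 9 higher chemokine and receptor genes that had a promoter there, and in 5 of the 31 list members in all. The windows of these 4 genes are shown, with the matches in capitals, because they belong to genes just described that were higher together, and each is read 5' to 3' on the strand of the gene. The Ccl9 window lies at chr10:68868939-68869018, that of Cxcl1 at chr14:17479379-17479458, that of Cxcl2 at chr14:17467285-17467364 and that of Cxcl6 at chr14:17596461-17596540, all on the minus strand and upstream of the first exon.
Ccl9: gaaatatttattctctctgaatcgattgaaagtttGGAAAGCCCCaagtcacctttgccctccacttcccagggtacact
Cxcl1: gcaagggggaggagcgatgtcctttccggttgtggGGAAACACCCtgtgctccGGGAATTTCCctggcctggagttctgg
Cxcl2: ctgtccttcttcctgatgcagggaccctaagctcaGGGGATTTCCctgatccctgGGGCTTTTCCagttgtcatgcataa
Cxcl6: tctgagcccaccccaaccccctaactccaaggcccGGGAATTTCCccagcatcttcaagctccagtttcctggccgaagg
Cxcl1 and Cxcl2 hold 2 matches each and the others 1. The matches nearest to the 5' end of the window begin 106, 102, 74 and 88 bases before the start, in the order given. Over all 566 higher genes, 436 had a promoter in the table and 4.36% of those held the letters, beside 1.35% of the 370 lower genes, 1.40% of the 10894 genes that were neither and 1.28% of all 27457 promoters. A match describes letters and is neither a binding site nor a cause.

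In prostaglandin and leukotriene genes 4 of 26 were higher and 2 lower. Ptgs2, the inducible cyclooxygenase, read 253 in PICT against 11.3 in PCT and 188 in OMCT, a difference of 3.11; Ptgs1, the constitutive form, was brighter as deposited but short of the threshold at 0.83. Thromboxane synthase Tbxas1 read 145 in PICT against 10.7 in PCT and 63.7 in OMCT, and Alox5ap, which presents arachidonate to 5-lipoxygenase, read 148 in PICT against 36.96 in PCT and 218 in OMCT. The lower ones were prostacyclin synthase Ptgis at 19.9 against 38.8 and the epithelial 12-lipoxygenase Alox12 at 524 in PICT against 1197 in PCT and 53.9 in OMCT. Thromboxane synthase was thus higher and prostacyclin synthase lower by the rule. For complement 3 of 22 genes were higher and 2 lower. The anaphylatoxin receptors C5ar1 and C3ar1 read 460.1 in PICT against 40.6 in PCT and 440.1 in OMCT and 174 in PICT against 13.1 in PCT and 289.7 in OMCT, whereas C3 itself was lower at 53.1 in PICT against 116 in PCT and 28.98 in OMCT. Clu, clusterin, a chaperone that also blocks the terminal complement complex, was lower at 215 in PICT against 494 in PCT and 469 in OMCT. In the coagulation and fibrinolysis list, with 3 higher and 2 lower of 24, the tissue activator Plat and the urokinase receptor Plaur read 1069.9 against 287 and 224 against 44.02, and the protease-activated receptors F2r and F2rl1 were lower at 123 against 196 and 20.9 against 70.3.

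In the TNF family 6 of 27 genes were higher and 3 lower. Tnfsf13, known as APRIL, a survival factor of plasma cells, read 523 in PICT against 66.1 in PCT and 608 in OMCT. Both the osteoclast receptor Tnfrsf11a, RANK, and the decoy that blocks its ligand, Tnfrsf11b or osteoprotegerin, were higher, at 97.8 in PICT against 21.01 in PCT and 109 in OMCT and 124 in PICT against 25.5 in PCT and 351 in OMCT. Lymphotoxin beta, Ltb, read 102 against 19.9, and Birc3, an inhibitor of apoptosis in TNF receptor complexes, read 174 against 34.7. The death ligand Tnfsf10, TRAIL, was lower at 13.8 in PICT against 47.04 in PCT and 2.99 in OMCT.

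Antimicrobial genes were higher in 4 of 15, among them S100a8, S100a9 and lysozyme. Slpi, the secretory leukocyte protease inhibitor, read 3124 in PICT against 733 in PCT and 347 in OMCT, a difference of 1.48. Of the serpins and cystatins 6 of 24 were higher and 0 lower; besides Serpinb3 these were Serpinb12 at 721 in PICT against 118 in PCT and 20.6 in OMCT, the cystatin Stfa3 at 783 in PICT against 28.3 in PCT and 0.495 in OMCT, A2m, the broad inhibitor alpha-2-macroglobulin, at 181 in PICT against 9.05 in PCT and 54.6 in OMCT, Slpi and Serpine2 at 668 in PICT against 142 in PCT and 1289 in OMCT. In Serpinb3, Serpinb12, Stfa3 and Slpi both PCT and OMCT were far below PICT, whereas Serpine2 was brightest in OMCT. The other Stfa3 probe set differed by -0.28, and stefin genes are near-identical copies, so which of them was read is uncertain. In the cornified envelope list 1 of 22 genes was higher and 1 lower. Sprr1b, an envelope protein of the same outer layers, was neither at 0.03, with 3416 in PICT against 2198 in PCT and 107 in OMCT.

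Immediate early genes, which are switched on within minutes of a stimulus, were higher in 7 of 27 and lower in none, with a median of 0.43. Dusp2, a phosphatase that ends MAP kinase signalling in leukocytes, read 102 in PICT against 5.76 in PCT and 74.2 in OMCT. Fosb read 96.99 in PICT against 7.997 in PCT and 25.95 in OMCT and Fos read 281 in PICT against 47.5 in PCT and 66.8 in OMCT, while their partner Jun was neither at 379 against 306, a difference of -0.30. Atf3, a stress factor, read 277 in PICT against 65.9 in PCT and 62.6 in OMCT, so PICT stood alone. The orphan nuclear receptors Nr4a1 and Nr4a3 read 225 in PICT against 37.1 in PCT and 107 in OMCT and 81.5 in PICT against 10.6 in PCT and 67.4 in OMCT, and Egr2 read 169.7 in PICT against 25.1 in PCT and 48.8 in OMCT. For Fos and Nr4a3, probe sets of the same gene disagreed, and the count for the list was 4 when the probe sets of each gene were averaged. The clock gene Per2 at 74.01 against 12.6 was higher and Nr1d1 at 18.8 in PICT against 43.1 in PCT and 141 in OMCT was lower, with the other 15 of 17 clock genes neither; the other probe set of Per2 differed by -0.84, and their mean of 0.26 was below the threshold. The sources used here do not give the times of day of harvest. Of the glucocorticoid response list only Hsd11b1, which regenerates active glucocorticoid inside cells, passed, at 404 in PICT against 39.1 in PCT and 1038 in OMCT.

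Lysosomal genes break down what a cell takes up or recycles. Of 49 hydrolases, membrane proteins and proton pump subunits, 14 were higher and 0 lower, and on the deposited values 28 were higher. The median was 0.47. Among proteases, Ctss, the cathepsin that trims the MHC class II invariant chain, read 947 in PICT against 59.1 in PCT and 1175 in OMCT, a difference of 3.22; Lgmn, an asparagine-specific protease, read 833 in PICT against 101 in PCT and 647 in OMCT; and Ctsz read 1008 in PICT against 156 in PCT and 905 in OMCT. Ctsk, the collagen-cutting cathepsin of osteoclasts, read 1815 in PICT against 440.3 in PCT and 3314 in OMCT, with OMCT brightest. Lipid-handling hydrolases included acid lipase Lipa at 389 in PICT against 40.04 in PCT and 201 in OMCT, acid ceramidase Asah1 at 338 in PICT against 98.2 in PCT and 415 in OMCT and the ganglioside activator Gm2a at 446 in PICT against 132 in PCT and 402 in OMCT. Of the ubiquitous members, Ctsd and the pump subunit Atp6v0c were closer to level at 0.11 and -0.14. Lamp1 lay below 0 at -0.89, short of the threshold. Of the pump, Atp6v1b2 alone passed at 1234 against 399. The list therefore differed member by member, and its largest values belonged to genes that phagocytes express strongly.

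The promoter windows of these myeloid and lysosomal genes were searched with the same table for GAGGAAGT, the PU.1-type letters that are the textbook mark of myeloid promoters. Over the higher genes 5.28% held it, beside 1.62% of lower genes, 2.09% of those that were neither and 2.04% of all promoters. It was in 2 of the 9 higher phagocyte genes and 2 of the 11 higher lysosomal genes that had a promoter. These 4 are shown, with the match in capitals on whichever strand it lies and each on the plus strand of the genome: Fcgr3a at chr13:85782545-85782622, Vav1 at chr9:2248868-2248945, Ctsc at chr1:151440799-151440843 and Ctss at chr2:185775344-185775395, all upstream of the first exon.
Fcgr3a: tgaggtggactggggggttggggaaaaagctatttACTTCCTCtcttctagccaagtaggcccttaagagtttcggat
Vav1: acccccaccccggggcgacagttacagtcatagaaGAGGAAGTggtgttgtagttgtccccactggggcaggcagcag
Ctsc: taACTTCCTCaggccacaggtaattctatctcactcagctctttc
Ctss: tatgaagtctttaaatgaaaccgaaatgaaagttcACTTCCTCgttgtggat
The match begins 56 bases before the start in Fcgr3a, 52 in Vav1, 248 in Ctsc and 17 in Ctss. The letters that the lysosomal regulator TFEB is known to bind, GTCACGTG, which contain the E-box CACGTG, did not have a larger share in higher genes: 1.83% of higher genes held them, 2.43% of lower genes and 3.21% of genes that were neither, and the E-box alone was in 6.65%, 6.76% and 7.93%. None of the 11 higher lysosomal genes with a promoter held either, while 8 of all 41 list members with a promoter held the E-box and 7 the longer form. In all, 12 letter strings were searched, chosen with the gene differences already known, so the shares describe and test nothing. The interferon response letters, a pair of GAAA set 2 bases apart, were in 8.03% of higher, 3.78% of lower and 2.40% of other genes, the AP-1 letters TGANTCA in 8.94%, 5.14% and 4.65%, and the antioxidant response letters, TGAC and after any 3 bases GCA, in 3.90%, 2.43% and 2.27%. The cyclic AMP letters TGACGTCA were in 2.29%, 1.62% and 2.69%, and the part TGACG alone in 20%, 19.5% and 26.3%. Looser forms separated the groups less: GAGGAA, contained in the PU.1 string, was in 34.2%, 25.4% and 22.6%, and GGG followed after any 5 bases by CC, a form that every NF-kB match also fits, in 57.6%, 64.3% and 58.4%. A longer string that contains the AP-1 letters, TGC directly before TGANTCA, was in 2 higher and 2 lower genes. Those were 0.459% and 0.541%, beside 0.248% of genes that were neither.

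Of 41 genes of fatty acid synthesis, transport and storage, 9 were higher and 2 lower, although the list median was 0.00, so the members did not move together. Fabp4, the fatty acid carrier of fat cells and macrophages, read 275 in PICT against 10.2 in PCT and 74.2 in OMCT, a difference of 3.31; Plin2, which coats lipid droplets, read 451 in PICT against 29.2 in PCT and 179 in OMCT, a difference of 3.003. The scavenger receptor Cd36 read 124 in PICT against 5.60 in PCT and 42.03 in OMCT, with a PCT value among the negative controls. Soat1, which esterifies cholesterol for storage, read 85.8 in PICT against 8.46 in PCT and 71.5 in OMCT, the cholesterol exporter Abca1 read 586 in PICT against 176 in PCT and 574 in OMCT and the lipid transfer protein Pltp read 496 in PICT against 72.01 in PCT and 445 in OMCT. In the adipocyte list Fabp4 and Lpl were higher and Car3 lower of 18, while its defining markers Adipoq, Plin1 and Lep were at or near the negative controls at 1.86 against 5.91, 5.37 against 5.42 and 6.06 against 2.59. The lower genes were Apod, a lipocalin of nerve sheath and fibroblasts, at 6.20 in PICT against 43.4 in PCT and 182 in OMCT, and the fatty acid elongase Elovl6 at 82.7 against 113. Cholesterol synthesis held 2 lower genes of 20, Lss at 125 against 246 and the sterol sensor Scap at 501 against 722, neither of which passed on the values as deposited.

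**Figure D4:**
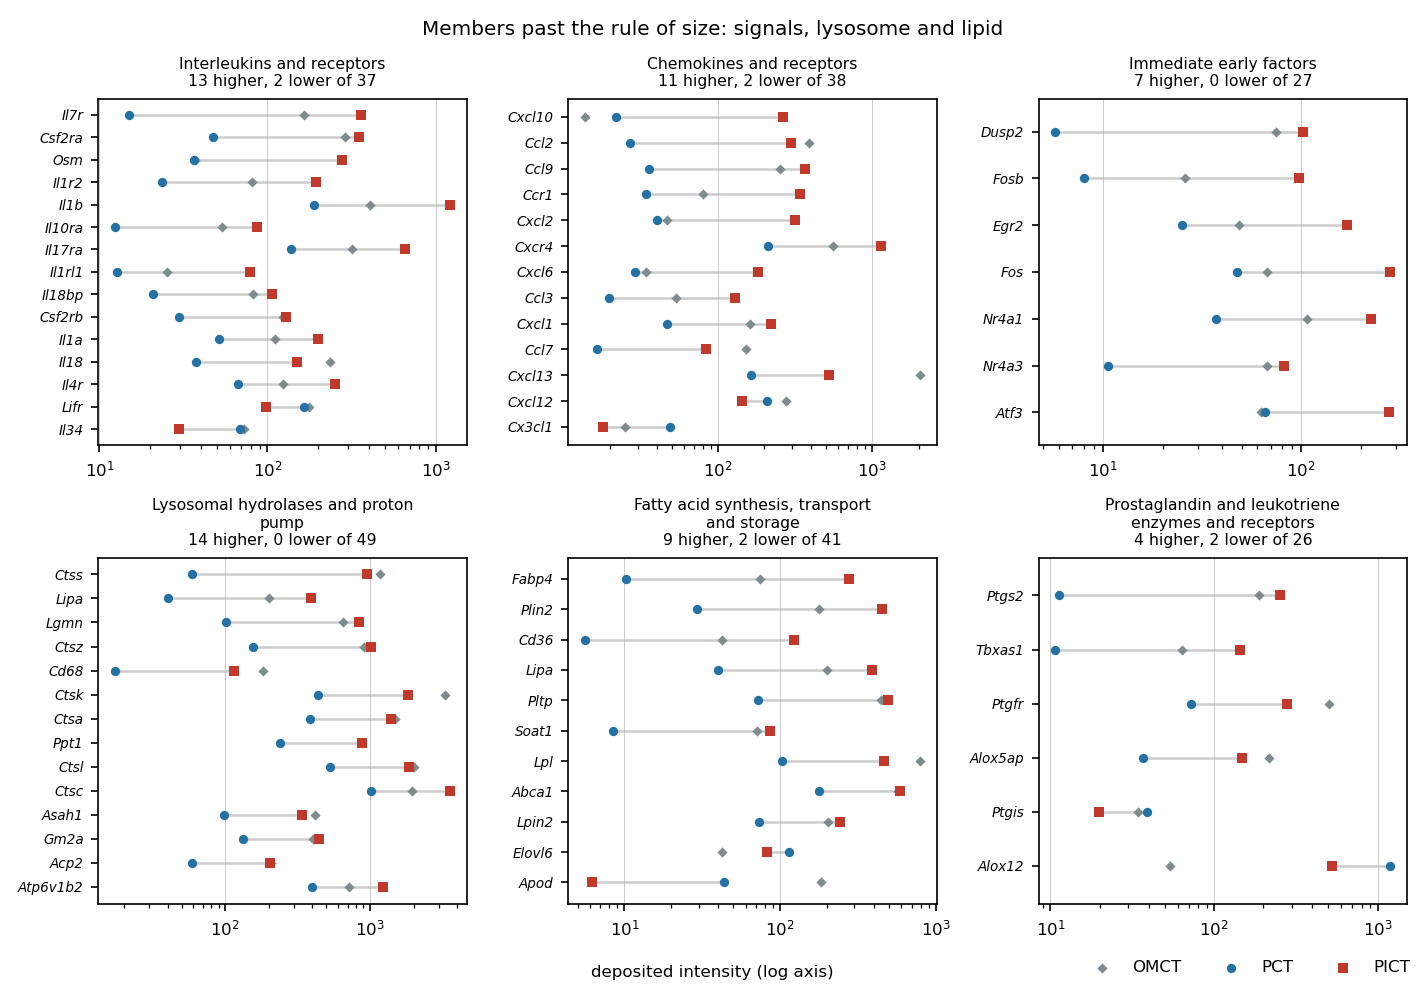
Deposited intensity on a log axis for every member past the 2-fold rule in 6 lists, with PICT as red squares, PCT as blue circles and OMCT as grey diamonds, the lines joining PICT and PCT. In the upper row Osm and Atf3 have OMCT on top of PCT while Ccl2 and Ccl7 have OMCT beyond PICT. In the lower row the lysosomal panel holds the 14 of 49 members that passed, all of them called higher.

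In the matrix, few collagens passed the rule. Of 22 collagens 1 was higher, Col24a1 at 120.1 in PICT against 16.3 in PCT and 441 in OMCT, and 1 lower, the fibril-associated Col14a1 at 32.96 in PICT against 80.7 in PCT and 40.9 in OMCT. The main fibre chains Col1a1, Col1a2 and Col3a1 had differences of -0.86, -0.35 and -0.19. Crosslinking and hydroxylation were higher in 3 of 22 genes: lysyl oxidase Lox at 2316 in PICT against 488 in PCT and 3295 in OMCT, its relative Loxl2 at 182 in PICT against 49.5 in PCT and 851 in OMCT and Plod2, the lysyl hydroxylase of scar crosslinks, at 467 in PICT against 115 in PCT and 423 in OMCT.

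Matricellular proteins, which sit in the matrix and instruct cells more than they bear load, were higher in 8 of 22 and lower in 2. Fibronectin, Fn1, read 1784 in PICT against 162 in PCT and 1442 in OMCT, a difference of 2.79. Tenascin N, Tnn, of bone and ligament read 978 in PICT against 173 in PCT and 4367 in OMCT, and periostin, Postn, read 5214 in PICT against 1571 in PCT and 6749.9 in OMCT; these, and tenascin C, which was higher too, were brightest in OMCT. Ccn2, a growth factor response gene of fibrosis, read 1612 in PICT against 458 in PCT and 765 in OMCT, with PICT the brightest of the tissues. Thbs2 read 394 in PICT against 92.3 in PCT and 1223 in OMCT, opposite to Thbs4. Nidogen Nid1 read 1052 in PICT against 162 in PCT and 1349 in OMCT, but its other probe set differed by -0.22. Sparcl1 was lower at 101 in PICT against 162 in PCT and 253 in OMCT.

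Elastic fibres give tissue its recoil. Of 16 elastin, fibrillin, fibulin and latent TGF-beta binding genes, 0 were higher and 5 lower, with a median of -0.44; as deposited 2 were higher and 1 lower. The lower ones were Ltbp1 at 267 in PICT against 429 in PCT and 894 in OMCT, Ltbp4 at 238 in PICT against 453 in PCT and 519 in OMCT, Mfap4 at 42.6 in PICT against 87.1 in PCT and 39.2 in OMCT, Fbln1 at 64.7 in PICT against 102 in PCT and 91.3 in OMCT and elastin, Eln, at 59.3 in PICT against 138 in PCT and 161 in OMCT, whose second probe set was higher by 0.41. Fibrillin Fbn1 was level at -0.31. Among proteoglycans 3 of 28 were higher and 6 lower. Versican, Vcan, a provisional matrix proteoglycan, read 542 in PICT against 75.5 in PCT and 416 in OMCT; Srgn, the granule proteoglycan of leukocytes, read 553 in PICT against 80.04 in PCT and 254 in OMCT; and lumican, Lum, which spaces collagen fibrils, read 4150.4 in PICT against 1111 in PCT and 6243 in OMCT. Of the called members Acan had the largest negative difference, followed by Prelp at 19.01 in PICT against 59.5 in PCT and 58.8 in OMCT and Omd, osteomodulin, at 31.3 in PICT against 71.8 in PCT and 291 in OMCT; the cell surface proteoglycans Sdc3, Gpc1 and Sdc4 were lower at 124 against 226, 307 against 512 and 878 against 1295.

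Markers of the periodontal ligament went both ways. Of 10 measured, 4 were higher in PICT, namely Postn, Tnn, Lox and the adhesion molecule Ncam1 at 245 in PICT against 36.6 in PCT and 164 in OMCT, and only Thbs4 was lower. The others were neither: Scx, Tnmd and Fmod at -0.72, -0.63 and -0.85, and Aspn and Col12a1 at 0.09 and 0.42. Postn, Tnn and Lox were brightest in OMCT, where the tooth had been pulled, so they do not mark ligament alone here. Fibroblast markers were divided, with Lum and Pi16, a marker of adventitial fibroblasts, higher (116 against 12.8 for Pi16) and Dpt, dermatopontin, at 139.6 in PICT against 356 in PCT and 1992 in OMCT and Fbln1 lower. Mineralised tissue genes leaned lower: of 11 osteoblast and cementoblast markers 0 were higher and 5 lower, with a median of -1.23, and 2 were lower as deposited. Dmp1, a matrix protein of osteocytes and cementum, read 36.5 in PICT against 118 in PCT and 40.03 in OMCT, Bmp2 read 469.6 in PICT against 899 in PCT and 864 in OMCT, alkaline phosphatase Alpl read 79.4 in PICT against 128 in PCT and 462 in OMCT and osteocalcin, Bglap, read 266 in PICT against 434 in PCT and 10.1 in OMCT. Bone sialoprotein, Ibsp, was level at 300.3 in PICT against 232 in PCT and 997 in OMCT, a difference of -0.24. In contrast 3 of 7 osteoclast genes were higher, Ctsk, Tnfrsf11a and the integrin subunit Itgb3 at 439 in PICT against 130.1 in PCT and 747 in OMCT, all of which macrophages or fibroblasts also express; Acp5, the classical acid phosphatase of osteoclasts, read 616 in PICT against 269 in PCT and 855 in OMCT, short of the threshold. The remaining osteoclast genes Nfatc1, Calcr and Car2 were neither, at 0.00, -0.28 and -0.89. Cartilage genes were mostly dim. The 2 of 11 that passed were lower, Acan and Col11a2 at 5.62 against 80.8, the latter below the negative controls in PICT.

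Of the integrin and adhesion genes, 8 of 30 were higher and 2 lower. Leukocyte integrin subunits led: Itgb2, the shared beta chain, read 286 in PICT against 21.6 in PCT and 337 in OMCT, Itgal read 110.2 in PICT against 8.13 in PCT and 268 in OMCT and Itgam read 102 in PICT against 5.72 in PCT and 107 in OMCT, together with their activator Fermt3 at 307 in PICT against 31.9 in PCT and 271 in OMCT. Itga11, a collagen receptor of fibroblasts, was higher at 162 in PICT against 43.8 in PCT and 570.2 in OMCT and brightest in OMCT. Of 26 basement membrane and hemidesmosome genes 1, Nid1, was higher and 2 were lower, Itgb4 at 734 in PICT against 1242 in PCT and 985 in OMCT and the linker Plec at 538 in PICT against 897 in PCT and 1384 in OMCT, while Col17a1 and Lamb3 of the same structure were neither, at -0.69 and -0.15. In the list of matrix proteases and their inhibitors 10 of 26 were higher, among them, besides Mmp13 and Mmp9, the aggrecanase Adamts5 at 103 in PICT against 8.89 in PCT and 122 in OMCT and the inhibitor Timp1 at 174 in PICT against 26.8 in PCT and 116 in OMCT.

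In the junctional and simple epithelium list 0 of 11 were higher and 4 lower, with a median of -0.98. Krt19 led, followed by Krt7 at 226 in PICT against 549.6 in PCT and 6.25 in OMCT, the claudin Cldn7 at 17.1 in PICT against 34.5 in PCT and 16.8 in OMCT and the adhesion molecule Epcam at 758 in PICT against 1015 in PCT and 459.5 in OMCT. As deposited, 2 of these were lower and Cldn4, at 705 in PICT against 306 in PCT and 86.5 in OMCT, was higher. Odam and Amtn, the enamel-organ proteins that define junctional epithelium best, are not analysed here. Krt17 and Cdh1 were neither, at -0.72 and -0.24. Of 9 basal keratinocyte genes, with a median of -0.85, Krt15 and Itgb4 were lower, while Krt5 and Krt14 were neither at -0.87 and -0.85. Tight junctions and connexins held 0 higher and 4 lower genes of 24, Cldn1 at 152 against 251, Gjb5 at 40.6 against 68.1, Cldn7 and the endothelial Cldn5. Fa2h, which makes the hydroxylated lipids of the skin barrier and of myelin, was lower at 10.1 in PICT against 103 in PCT and 23.6 in OMCT.

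Blood vessel genes were lower relative to the array median. Of 18 endothelial markers 0 were higher and 6 lower, and all 18 had differences below 0, the closest being Egfl7 at -0.09; the median was -0.82. Plvap, which forms the diaphragms of fenestrated capillaries, read 59.00 in PICT against 204 in PCT and 329 in OMCT, a difference of -2.26. Cldn5, the endothelial claudin, read 83.2 in PICT against 196 in PCT and 223 in OMCT, von Willebrand factor Vwf read 114 in PICT against 183 in PCT and 322 in OMCT and Pecam1 read 295 in PICT against 437 in PCT and 795 in OMCT. As deposited, PICT was the lowest tissue and OMCT the highest in each of these. After centring PICT was still lowest, but OMCT minus PCT was 0.04 for Plvap, -0.44 for Cldn5, 0.17 for Vwf and 0.23 for Pecam1. The growth factor receptors Kdr and Tek were brighter in PICT as deposited, at 576 against 432 and 592 against 486, and the median on that scale was -0.22 with 2 lower genes, so the size of this pattern rests on the centring. Of 16 pericyte and smooth muscle genes 2 were lower and none higher: Rgs5 read 569.8 in PICT against 1592 in PCT and 1816 in OMCT and Notch3 read 79.03 in PICT against 186 in PCT and 122 in OMCT, whereas the contractile genes Acta2 and Myh11 were neither, at 0.16 and -0.85. Lymphatic markers did not differ by the rule, 0 of 8; Lyve1 read 107 in PICT against 57.9 in PCT and 901 in OMCT and Prox1 read 19.2 in PICT against 21.6 in PCT and 99.1 in OMCT. Red blood cell genes were lower in 3 of 5, with beta-globin Hbb at 415 in PICT against 765 in PCT and 129 in OMCT.

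Nerve and Schwann cell genes were lower in 6 of 15, with a median of -1.004, and 4 were lower as deposited. Sox10, the transcription factor that defines the Schwann lineage, read 3.20 in PICT against 35.3 in PCT and 36.8 in OMCT, a difference of -2.50, and the neurofilament Nefl read 0.924 in PICT against 35.9 in PCT and 11.2 in OMCT, a difference of -2.83; both PICT values lie below the negative controls. The neurotrophin receptor Ngfr read 32.9 in PICT against 77.5 in PCT and 75.3 in OMCT, and myelin genes Mbp and Pmp22 read 134 in PICT against 374 in PCT and 123 in OMCT and 303 in PICT against 442 in PCT and 364 in OMCT. For Mbp a second probe set was higher by 0.51. PICT was below both other tissues for Sox10, Nefl, Ngfr and Pmp22. Of the members that were neither, Tubb3 and Gfap had differences of 0.38 and 0.20, and Prx and Uchl1 of -0.02 and -0.03. Erbb3, S100b, Prph and Nefm were further below 0, at -0.77, -0.89, -1.03 and -1.69. The 1 higher gene of the list was Egr2, which drives myelination but is also an immediate early gene, named among those genes.

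Guidance molecules, many of them secreted by vessels and stroma for growing axons, were lower in 7 of 40 and higher in 2. The lower ones included the semaphorins Sema3b at 33.2 in PICT against 86.8 in PCT and 48.3 in OMCT, Sema3g at 108 in PICT against 198 in PCT and 149 in OMCT, Sema5a at 152 in PICT against 276 in PCT and 363 in OMCT and Sema6a at 98.5 in PICT against 167 in PCT and 190.3 in OMCT and the netrin receptor Unc5b at 84.8 in PICT against 178 in PCT and 234 in OMCT. Plxnc1, a semaphorin receptor that leukocytes carry, was higher at 134 in PICT against 10.1 in PCT and 61.6 in OMCT. Averaging the probe sets of each gene left 0 higher and 2 lower, so this list rests on the choice of probe set.

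Growth factor genes were more often lower than higher by the rule. In the BMP and TGF-beta list 4 of 39 were higher and 9 lower, with a median of -0.39; as deposited 4 were higher and 2 lower. Among ligands, activin moved in opposite ways: Inhba, the beta-A subunit, read 1209 in PICT against 119 in PCT and 779 in OMCT, a difference of 2.65, and Inhbb differed by -2.53. Bmp2 and Bmp4 were lower, the latter at 37.6 in PICT against 62.5 in PCT and 739.96 in OMCT, as was Tgfb1 at 41.3 in PICT against 78.2 in PCT and 173 in OMCT. Of the antagonists, Grem1, which binds Bmp2 and Bmp4, read 108 in PICT against 0.456 in PCT and 1435 in OMCT; with PCT at the negative controls the difference of 3.09 has no exact size, and OMCT was far brighter than PICT. Fstl1 was higher at 1913 in PICT against 621 in PCT and 3134 in OMCT by a narrow margin. Receptors were split between Tgfbr1 at 1024 in PICT against 145 in PCT and 846 in OMCT, which was higher, and Bmpr2 at 629 in PICT against 885 in PCT and 977 in OMCT and Acvrl1, the endothelial receptor, at 100.5 in PICT against 158 in PCT and 270.2 in OMCT, which were lower. The direct BMP target genes Id1 and Id3 were lower, at 468 in PICT against 645 in PCT and 387 in OMCT and 263 in PICT against 629 in PCT and 596 in OMCT, with Id2 neither at 0.35, and the pseudoreceptor Bambi was lower at 123 in PICT against 244 in PCT and 33.6 in OMCT. The BMP ligands Bmp3, Bmp6 and Bmp7 were neither, at 0.06, -0.25 and -0.95, as were the receptors Bmpr1a and Acvr1 at -0.39 and -0.31.

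Of the Wnt genes 1 of 37 was higher, Wnt2b at 71.4 against 17.4, and 4 were lower. The lower ones were the receptor Fzd4, which acts in vessels, at 125 in PICT against 403 in PCT and 424 in OMCT, the secreted inhibitors Sfrp2 at 363 in PICT against 1139 in PCT and 964 in OMCT and Wif1 at 70.3 in PICT against 138 in PCT and 925 in OMCT, and Wnt4 at 505 in PICT against 725 in PCT and 477 in OMCT. The target gene Axin2 was near the shift between the arrays, with 106 against 107 and a difference of -0.62.

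Insulin-like growth factors act through Igf1r and are held by a set of binding proteins, of which some members were lower and others neither. Igf2 read 218 in PICT against 509 in PCT and 486 in OMCT, the receptor Igf1r read 236 in PICT against 457 in PCT and 443 in OMCT, and the binding proteins Igfbp3, Igfbp5 and Igfbp6 read 644 in PICT against 1019 in PCT and 604 in OMCT, 709.7 in PICT against 1468 in PCT and 1381 in OMCT and 314 in PICT against 559 in PCT and 591 in OMCT. Igf1 was neither at -0.57, as were Igfbp2, Igfbp4 and Igfbp7 at -0.41, -0.35 and -0.66. In Igf2, Igf1r, Igfbp5 and Igfbp6 the PICT value was the lowest of the tissues. PCT and OMCT were close as deposited, but after centring OMCT minus PCT was -0.69, -0.67, -0.71 and -0.54 in that order. Igf2 has 4 probe sets and their mean difference was -0.93, and Igfbp5 was short of the threshold at -0.48 with the probe set that is brightest over PICT and PCT. The higher growth factors were both ligands of the EGF receptor, amphiregulin Areg at 210.1 in PICT against 36.6 in PCT and 94.4 in OMCT and epiregulin Ereg at 94.7 in PICT against 16.2 in PCT and 21.9 in OMCT, while the receptor Egfr was neither at -0.54. Over the growth factor list 2 of 47 were higher and 6 lower, and as deposited 3 and 2.

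**Figure D5:**
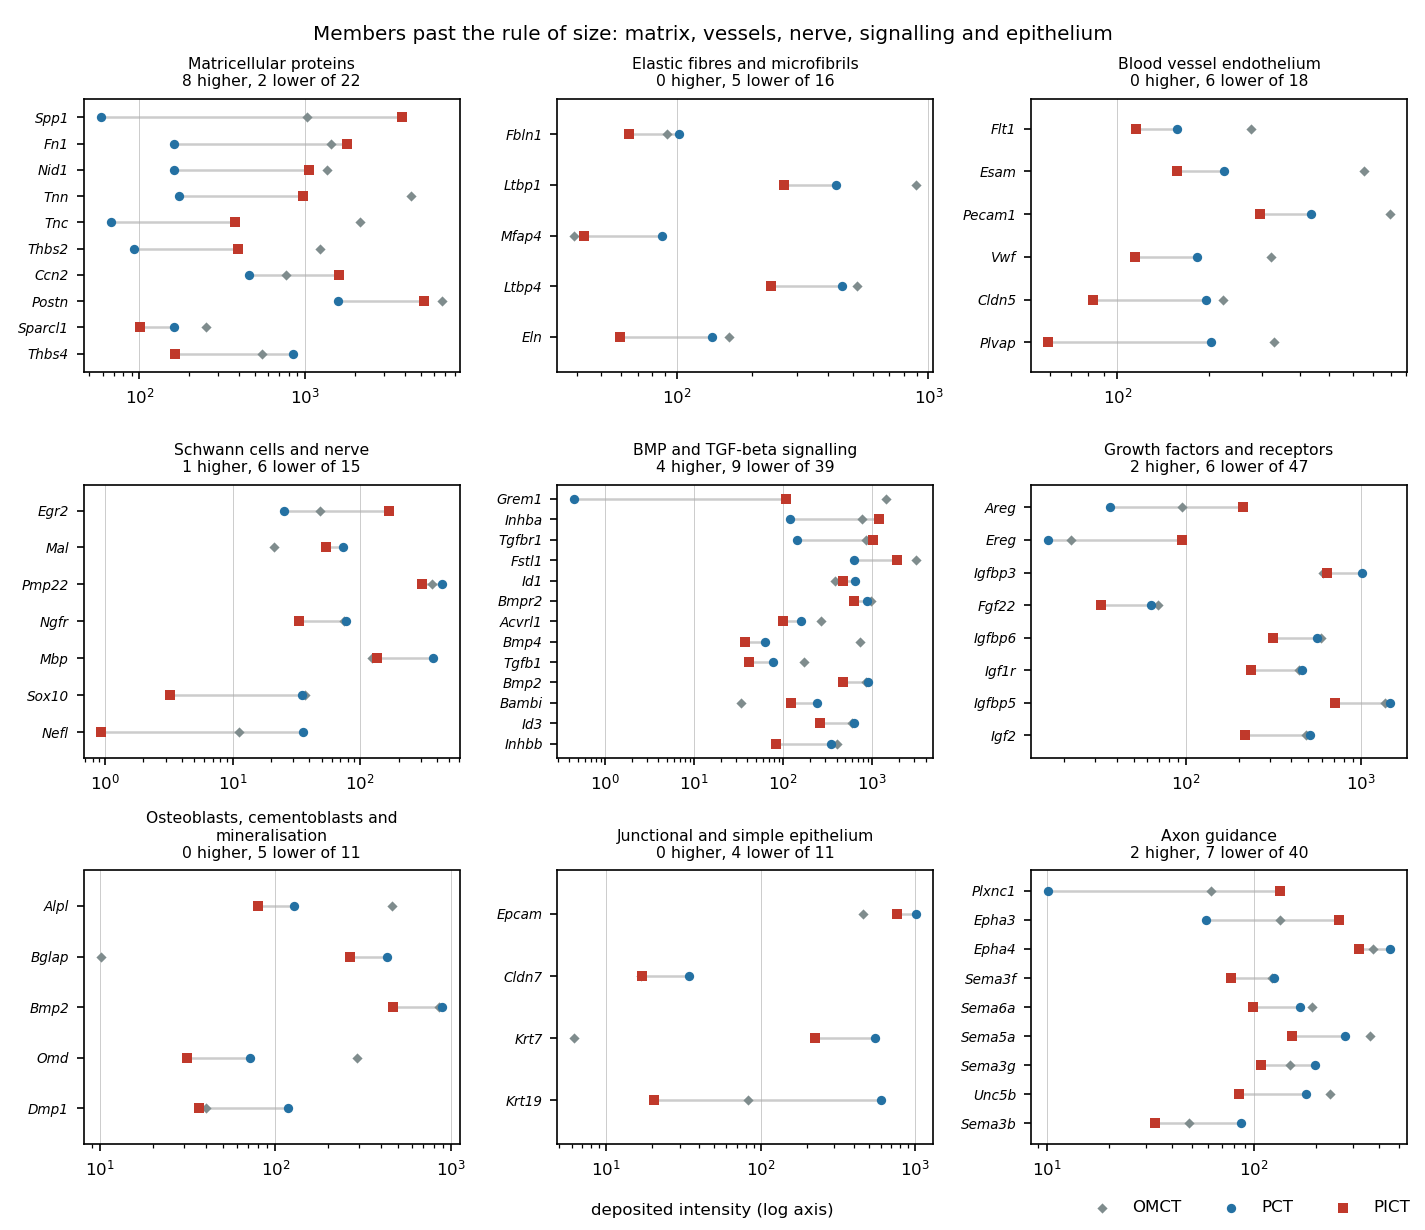
Deposited intensity on a log axis for every member past the 2-fold rule in 9 lists, with PICT as red squares, PCT as blue circles and OMCT as grey diamonds, the lines joining PICT and PCT. The endothelial and elastic fibre panels hold the 6 of 18 and 5 of 16 members that passed, all of them called lower. In the matricellular panel 8 of the 10 genes shown were called higher.

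Notch and hedgehog genes held 3 lower of 23 and none higher: Notch3, its target Hey1 at 49.7 against 93.1 and the ligand Jag2 at 299.99 against 476. Homeobox and T-box genes, which keep positional memory, were level except for Tbx18, a gene of mesenchyme and pericytes, which was higher at 95.2 in PICT against 6.49 in PCT and 50.7 in OMCT, and Tbx2 and Pitx1, which were lower at 79.1 against 187 and 338 against 467. Retinoid genes held 2 lower of 21, the synthetic enzyme Rdh10 at 109 against 231 and the receptor Rarg at 123 against 177. Mitf, listed for melanocytes but known in macrophages and osteoclasts too, was higher at 143 in PICT against 14.3 in PCT and 157 in OMCT, while Dct, a pigment enzyme, was dim at 21.04 against 27.7. In the salivary list the 2 higher genes were the lysozyme Lyz2 at 7419 in PICT against 797 in PCT and 7094 in OMCT and the potassium channel Kcnn4 at 139.7 against 26.7, both of which leukocytes express.

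None of 45 respiratory chain genes passed, and their differences ran from -0.66 to 0.57; none of 38 citrate cycle and fatty acid oxidation genes passed. Glycolysis and hypoxia genes held 2 higher and 2 lower of 30. Slc16a3, the lactate exporter of glycolytic cells, read 773 in PICT against 96.5 in PCT and 246 in OMCT, a difference of 2.29, whereas Ldha was level at -0.28 and Slc2a1 at 0.19. Pfkfb3 was called higher at 1.03, but its probe sets disagreed and their mean was -0.10. Lower were Hk1 at 151 against 218 and Epas1, the hypoxia factor of endothelium, at 404 against 613.

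Redox genes went both ways, with 3 of 31 Nrf2 targets and antioxidant enzymes higher and 3 lower. Hmox1, which degrades haem, read 509.96 in PICT against 60.1 in PCT and 154 in OMCT, a difference of 2.31, and was the 1 gene of 24 in the haem and iron list to pass. The cystine importer Slc7a11, also a target of Nrf2, was lower at 401 in PICT against 1333 in PCT and 194 in OMCT, as were the extracellular enzymes Sod3 at 19.4 in PICT against 75.2 in PCT and 169 in OMCT and Gpx3 at 332 in PICT against 755 in PCT and 1907 in OMCT. Prdx5 at 3803 in PICT against 1178 in PCT and 2133 in OMCT and Gpx8 at 202 in PICT against 52.8 in PCT and 422 in OMCT were higher. Of 42 detoxifying enzymes 1 was higher, Aldh3b1, and 5 were lower, among them the sulfotransferase Sult1a1 at 47.2 against 114 and the glutathione transferases Gstp1 at 726 against 1104 and Gstt1 at 40.7 against 67.8; as deposited 4 were higher and 1 was lower.

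Of 42 amino acid and polyamine genes 4 were higher and 2 lower. Bcat1, the cytosolic branched-chain transaminase, read 198 in PICT against 15.5 in PCT and 276 in OMCT, glutamine synthetase Glul read 2403 in PICT against 584 in PCT and 2767 in OMCT, and Arg1, which turns arginine into ornithine, read 585 in PICT against 149 in PCT and 109 in OMCT. Sat1, which acetylates polyamines, read 2223 in PICT and 672 in PCT. Cdo1 and the amino acid transporter heavy chain Slc3a2, the partner of Slc7a11, were lower, Slc3a2 at 226 in PICT against 434 in PCT and 389 in OMCT. In the adenosine and purine list, with 4 higher and 1 lower of 30, Ada was lower by -3.70 while P2ry6, a receptor for UDP, read 169 in PICT against 22.8 in PCT and 212 in OMCT, and the concentrative transporter Slc28a2 read 128 against 25.8. The adenosine receptor Adora2a was called higher at 61.9 against 3.01, with PCT at the negative controls and the other probe set at -0.31. Ion transport genes held 0 higher and 6 lower of 32: after Car3 came the mitochondrial Car5b at 163 in PICT against 417 in PCT and 576 in OMCT, the water channel of vessels and red cells Aqp1 at 196 in PICT against 389 in PCT and 897 in OMCT, the scaffold Nherf1 at 113 against 202, the sodium channel Scnn1a at 45.01 in PICT against 82.4 in PCT and 2.22 in OMCT and Kcnj15 at 145 against 208.

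Genes of protein synthesis, folding and breakdown held no called member: 0 of 37 ribosomal protein genes, 0 of 30 proteasome genes, 0 of 37 chaperone and unfolded protein response genes and 0 of 11 reference genes passed. Their medians were -0.38, -0.11, -0.04 and -0.09. Actin genes held 2 higher of 42, both of them the leukocyte genes Lcp1 and Coro1a. Of 49 cell cycle genes 2 were lower, the mitotic kinases Plk1 at 99.00 against 184 and Cdk1 at 181 against 255 and none higher; Pcna read 759.98 in PICT against 508 in PCT and 1249 in OMCT. Of 25 heat shock genes 1 passed in each direction, with Hsf2 as higher at 228 against 66.3, its probe sets in disagreement, and the chaperone partner Bag3 as lower at 192 against 352.

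In number, 300 of the 1045 called genes belong to the lists described, and the other 745 to none of them. The lists hold 1615 of the 14217 genes. Among called genes with several probe sets 73.1% had every probe set on the same side of zero, and 84.6% when probe sets too dim to count were left aside. Of the 566 higher genes 28 had a PCT value at or below the highest negative control of that array, and 14 of the 479 lower genes had such a PICT value, so the size of those differences is a matter of the added constant.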

How the data were processed

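The authors deposited 1 table of intensity values on a linear scale, 1 per probe set and array, for 31099 probe sets of a rat GeneChip on which, per the labels' protocols, RNA had been amplified and labelled with a 3' kit. How probes were summarised and whether arrays were scaled is not stated in the labels. Platform annotation named 20832 probe sets with 1 symbol, 436 with several and 9831 with none; controls aside, 20758 of 20826 matched RefSeq (GRCr8). The brightest probe set over the 3 arrays stood for each of 14217 genes, 4525 of which had several. Values were log2(intensity + 8.56), the constant being the 20th percentile of all values, centred on each array's median. Genes named are the 15 leading in each direction whose brighter array was above its 75th percentile and whose probe sets had the same sign, up to 4 called members per list and direction, the 2 brightest of lists with none, 6 genes for the label check, and members with a defining role. The comparison, the 75 lists and the motifs were chosen with earlier results of these data known. The series' design text once calls the PCT animals mice, the sample labels rats; they are taken as rats. The counting was tested on simulated data. Python 3.11.15, pandas 2.3.3 and statsmodels 0.14.6 were used. Alternatives covered scaling, the added constant, the choice of probe set and the filter on dim genes.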

Additional observations from a re-analysis of the deposited data

Results flagged for a closer look

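Probe sets without exactly 1 gene symbol were left out of every comparison. Among these 10216 probe sets, 308 (3.01%) were higher in PICT than in PCT by the same rule of size and 150 (1.47%) were lower. The largest upward difference belonged to a probe set that read 230.3 in PICT, 0.981 in PCT and 172 in OMCT, a difference of 4.04; its PCT value is below the negative controls, so that size is not exact.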

How the results depend on the processing

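With 1 array per tissue no array could be left out, so error between animals is unknown, and the added constant limits what dim genes can show. No paired analysis was possible because each tissue has 1 array. Against 566 higher and 479 lower genes, values as deposited gave 2009 and 128, the median of all values as the added constant gave 400 and 130, no filter on dim genes gave 657 and 945, and a filter at the 75th percentile gave 344 and 271. Quantile normalization gave 577 and 470, lowess centring 598 and 436, a constant of 1 gave 598 and 665, the mean over a gene's probe sets 463 and 391, and the probe set brightest over PICT and PCT 565 and 477. Of the genes that the naming rule chose or that are named beside them, 168 were called higher and 123 lower. All 168 kept their call as deposited, on quantile normalization and on lowess centring, while 64 of the 123 lost it as deposited, as that scale adds 0.60 to each difference. With the median constant 33 and 56 lost it, and with the filter at the 75th percentile 51 and 33. With the mean over probe sets 21 and 20 lost it and Pfkfb3 reversed, at -0.10. Those lost there included Per2 at 0.26, Cd8a at 0.83, Ciita at 0.65, Fos at 0.52, Nid1 at 0.91, Ptgfr at 0.24, Cxcl12 at -0.68, Eln at -0.65, Igf2 at -0.93 and Mbp at -0.84.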

Other observations

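In some genes called in either direction, probe sets of the same gene lay on opposite sides of zero, and these are given as values. Stfa3 had probe sets at 3.82 and -0.28, Cd8a ranged from 3.04 to -0.39, and Aif1, a macrophage marker, had 2.38 and -0.49. Slfn4, a myeloid gene induced by interferon, had 2.76 and -0.72, and Mx2 had 2.25 and -1.19. Among genes outside the lists, Ppm1h, a phosphatase, ranged from 2.35 to -0.03, the interferon gamma receptor chain Ifngr2 had 2.11 and -0.02, and the thyroid hormone receptor Thrb ranged from -1.81 to 0.20. The leptin receptor Lepr, with 7 probe sets, ranged from -2.07 to 0.07, and the kinase Slk ranged from -1.76 to 0.07. Which transcripts these probe sets read was not tested.

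With the genes ordered by level and cut into 10 equal groups, the dimmest had a median difference of -0.56 and the next of -0.32; in the 7 brightest groups it lay between -0.08 and -0.01.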
